A study of Mus musculus with 6 samples.

Results

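This report follows 8 genes, namely *Trp53*, which encodes p53, 6 genes that p53 activates (*Mdm2*, *Cdkn1a*, *Ccng1*, *Phlda3*, *Bax* and *Trp53inp1*), and *Cdkn2a*, a known target of Polycomb repressive complex 1 (PRC1), through RNA-seq of mouse embryonic stem (mES) cells. The genes were chosen by name from 16668 listed gene symbols, and all 8 were listed and passed the low-value filter (0.5 RPKM on average), which 11538 genes did. RPKM is the number of reads scaled to exon length and to the mapped reads of the library. The cells were of the E14 line (strain 129/Ola, passages 3 to 5), grown without feeder cells in 2i medium (1 µM PD0325901 and 3 µM CHIR99021, inhibitors of MEK and GSK3) with 1000 U/ml LIF. According to the methods of the study, all cells received siRNA, either control siRNA or siRNA against *Rnf2* (encoding Ring1B) or *Dzip3*, and were collected 72 h after transfection. The comparisons ask how these genes behave when either H2A ubiquitin ligase is depleted.

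The 6 libraries have 2 sets of names, which differ for 4 of them. The submitted files are numbered, and each file name holds a condition word: control, Ring1BKD and Dzip3KD for the first 3 files (set 1), and the same words again for the last 3 (set 2). The sample labels for set 1, in that order, are control 1, control 2 and Ring1B-KD 1. For set 2 they are Ring1B-KD 2, Dzip3-KD 1 and Dzip3-KD 2. Values below are given by file word within each set, and the comparisons by sample label follow after them. Each name has 2 libraries, which the study describes as biological duplicates of 1 cell line. The file word was used with the levels of the targeted genes already known, so these levels lend it no independent support, and the names below do not state that either gene was knocked down.

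*Rnf2* was at 30.6, 20.4 and 26.8 RPKM in the set 1 files named control, Ring1BKD and Dzip3KD, and at 28.8, 19.4 and 28.2 RPKM in set 2. By file word, the Ring1BKD files were thus the lowest of each set, with a log2 change against control of -0.55 ± 0.13 (SE, adjusted p 0.232 by limma). *Dzip3* was at 2.24, 2.68 and 1.18 RPKM in set 1 and at 1.89, 1.70 and 1.31 RPKM in set 2, on 23 to 53 reads. The Dzip3KD files were the lowest of each set, with a log2 change of -0.45 ± 0.21 (SE, adjusted p 0.754 by limma). By sample label, *Rnf2* averaged 25.5 ± 7.17 RPKM (SD, n = 2) in control, 27.8 ± 1.38 RPKM (SD, n = 2) in Ring1B-KD and 23.8 ± 6.22 RPKM (SD, n = 2) in Dzip3-KD. *Dzip3* averaged 2.46 ± 0.308 RPKM (SD, n = 2) in control. It was about equally low in Ring1B-KD, at 1.53 ± 0.499 RPKM (SD, n = 2), and in Dzip3-KD, at 1.5 ± 0.277 RPKM (SD, n = 2). None of these changes passed the threshold of an adjusted p of 0.05 under either naming.

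As background, p53 is a transcription factor that is made continuously in mES cells and kept low by Mdm2, a ubiquitin ligase that marks it for destruction. When DNA damage or other stress frees p53 from Mdm2, it binds paired decamer elements near its target genes, which then arrest the cell cycle, start apoptosis or, through *Mdm2* itself, switch the response off again. *Cdkn2a* feeds into this circuit from above. Alternative first exons give it different products in different reading frames: p16Ink4a, which inhibits the kinases Cdk4 and Cdk6, and p19Arf, which holds Mdm2 away from p53. PRC1, whose catalytic subunit is Ring1B, is known for silencing this locus in young cells, and loss of PRC1 components de-represses it in fibroblasts.

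Sequences that match the p53 element are shown because p53 is known to act on its targets through such elements. The element was searched within 3000 bases on either side of the annotated gene start (GENCODE M1 on the mm9 build) as 2 decamers with at most 10 bases between them. Each decamer was written as 3 purines, a C, 2 bases that are A or T, a G and 3 pyrimidines. This pattern reads the same on both strands. The C and G with the 2 bases between them had to be whole, and 1 mismatch was allowed elsewhere in the pair. Of the 8 genes, 4 held such a pair, against 10.44% of the 15132 listed genes that could be scanned. The pairs are given 5′ to 3′ on the strand of the gene, with the decamers in capitals and any bases between them in lower case.
*Cdkn1a*: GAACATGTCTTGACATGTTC
*Ccng1*: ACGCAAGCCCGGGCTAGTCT
*Bax*: AAACATGCTTttgctcAGTCAAGCCC
*Trp53inp1*: AAACATGTCCaGGACTAGCCT

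The *Cdkn1a* pair lies on the plus strand at chr17:29227873-29227892, with its centre 42 bases before the outermost annotated start of the gene. The *Ccng1* pair is in an intron at chr11:40568438-40568457 on the minus strand, 366 bases after the start. The *Bax* pair is in an intron at chr7:52720907-52720932 on the minus strand, 1349 bases after the start. The *Trp53inp1* pair is upstream of the gene at chr4:11082259-11082279 on the plus strand, 1309 bases before the start, and is the single one of the 4 with no mismatch. No pair was found by this pattern in the windows of *Trp53*, *Mdm2*, *Phlda3* and *Cdkn2a*. A match is a match of letters and was not tested for binding.

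In order of mean level over the 6 libraries, *Ccng1* was at 82.2 RPKM (63.9 to 104.0), *Cdkn1a* at 56.7 (44.9 to 72.9), *Trp53* at 53.8 (37.2 to 83.3), *Trp53inp1* at 48.1 (35.9 to 65.1) and *Mdm2* at 36.7 RPKM (27.3 to 48.0). They were followed by *Bax* at 29.8 (24.7 to 34.0), *Phlda3* at 24.6 (21.5 to 28.9) and *Cdkn2a* at 10.02 RPKM (6.67 to 11.45). The ranges of neighbours in this order overlapped, except for *Phlda3* and *Cdkn2a*. The mean of *Ccng1* was higher than that of 99.0% of the listed genes and the mean of *Cdkn2a* higher than that of 81.6%. Library depth, recovered from the steps of the RPKM values, was 3015349 to 3583612 mapped reads. No member was at the counting limit of 3 reads. *Cdkn2a* had the fewest, 26 to 44 reads, which gives a counting error of 19.6% at 26 reads, and *Bax* followed with 70 to 98 reads. Log2 changes below are limma estimates on log2(RPKM + 1), fitted over both sets with the set as a block, and ratios are of RPKM within a set. Intervals on ratios are exact 95% intervals on the reads. They cover counting error only and not the spread between libraries. PCR copies cannot be told from separate molecules, so the counting error itself may be understated.

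**Figure D1:**
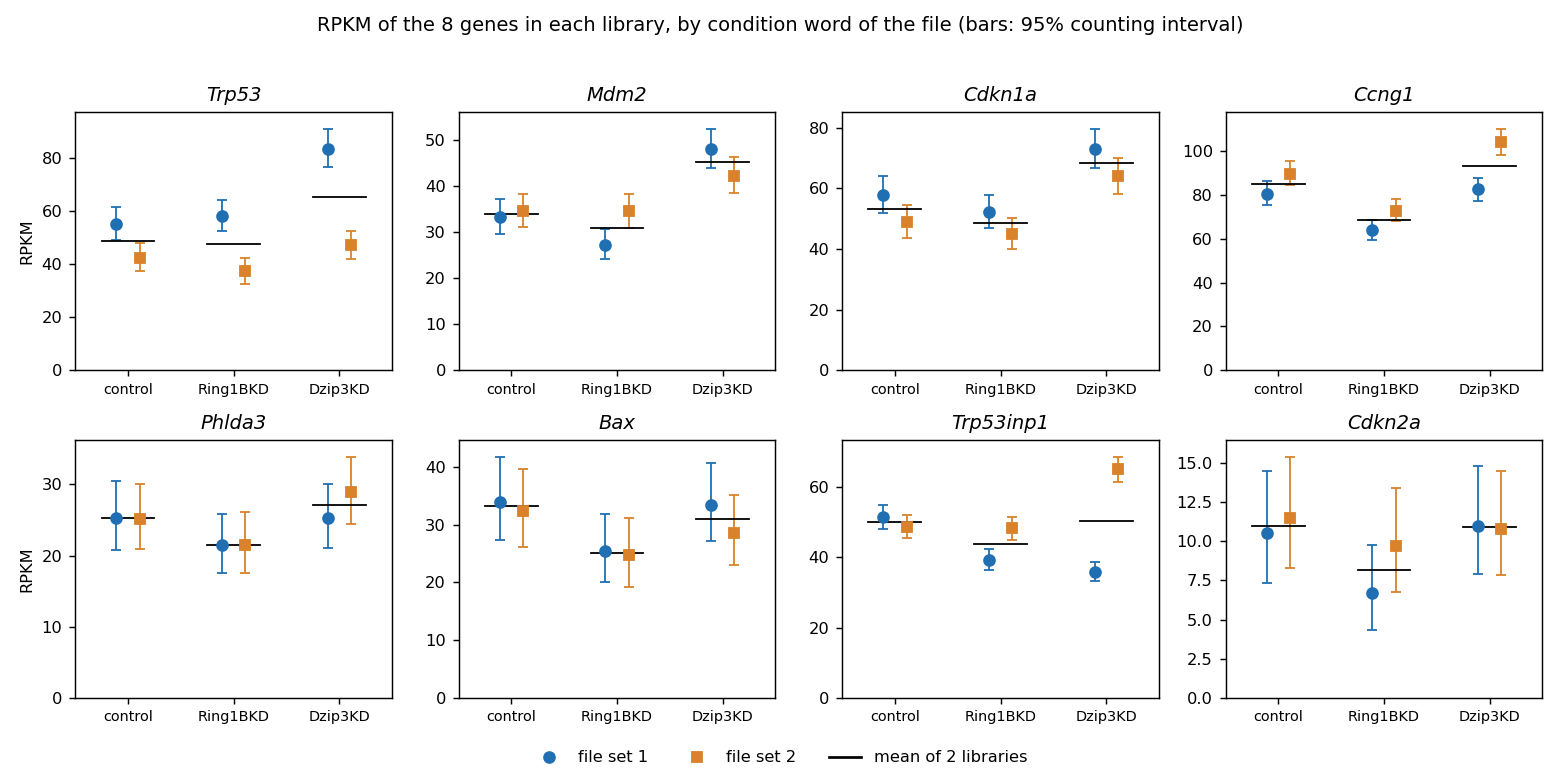
RPKM of each of the 8 genes (vertical axis, from 0) in the files named control, Ring1BKD and Dzip3KD; circles are set 1, squares set 2, bars exact 95% counting intervals, and lines the mean of the 2 libraries. The Dzip3KD libraries of *Cdkn1a* (72.9 and 63.9 RPKM) and *Mdm2* (48.0 and 42.3 RPKM) lie above the other 4, the Ring1BKD libraries of *Bax*, *Ccng1*, *Phlda3* and *Cdkn2a* are the lowest, and *Trp53inp1* goes opposite ways in the Dzip3KD files of the 2 sets.

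*Trp53* (ENSMUSG00000059552.6, chr11:69393861-69405375, plus strand) was at 55.0, 57.9 and 83.3 RPKM in the files named control, Ring1BKD and Dzip3KD of set 1, and at 42.3, 37.2 and 47.1 RPKM in set 2. The Dzip3KD file was the highest of each set, but all libraries of set 2 were lower than all of set 1, so the groups overlapped when the sets were pooled. Against control, the Dzip3KD file stood at 1.51-fold (1.31 to 1.75) in set 1 and at 1.11-fold (0.942 to 1.32) in set 2. The log2 change over both sets was 0.37 ± 0.14 (SE, adjusted p 0.754 by limma). For Ring1BKD the ratio to control was 1.05 (0.902 to 1.23) in set 1 and 0.880 (0.733 to 1.06) in set 2. The log2 change was -0.05 ± 0.14 (SE, adjusted p 0.941 by limma), which turned to 0.06 when the libraries were scaled to a common 75th percentile and to 0.12 without the control library of set 2.

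*Mdm2* (ENSMUSG00000020184.8, chr10:117125944-117147814, minus strand), the ubiquitin ligase of p53 and at the same time its target, was at 33.3, 27.3 and 48.0 RPKM in set 1 and at 34.6, 34.6 and 42.3 RPKM in set 2. Both Dzip3KD libraries lay above the other 4. Their mean was 45.2 ± 4.02 RPKM (SD, n = 2), while it was 33.9 ± 0.906 RPKM (SD, n = 2) in control and 30.9 ± 5.16 RPKM (SD, n = 2) in Ring1BKD. The ratio of Dzip3KD to control was 1.44 (1.25 to 1.67) in set 1 and 1.22 (1.06 to 1.41) in set 2, so that neither counting interval reached 1. Between libraries the log2 change was 0.40 ± 0.15 (SE, adjusted p 0.754 by limma), which did not pass. For Ring1BKD against control it was -0.14 ± 0.15 (SE, adjusted p 0.836 by limma) and came from set 1. Without the Ring1BKD library of set 1 it was 0.06.

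*Cdkn1a* (ENSMUSG00000023067.7, chr17:29227924-29237667, plus strand) encodes p21, the inhibitor of cyclin-dependent kinases through which p53 arrests the cell cycle. The *Cdkn1a* sequence given above matches the p53 element by its letters. It was at 57.8, 52.1 and 72.9 RPKM in set 1 and at 48.8, 44.9 and 63.9 RPKM in set 2. The order Dzip3KD, control, Ring1BKD was the same in both sets, and both Dzip3KD libraries lay above the other 4. Against control, the Dzip3KD file stood at 1.26-fold (1.10 to 1.45) in set 1 and at 1.31-fold (1.13 to 1.51) in set 2, and the log2 change was 0.36 ± 0.12 (SE, adjusted p 0.754 by limma). The Ring1BKD file stood at 0.901-fold (0.776 to 1.05) and 0.919-fold (0.783 to 1.08), with a log2 change of -0.13 ± 0.12 (SE, adjusted p 0.798 by limma). Between Dzip3KD and Ring1BKD the ratios were 1.40 (1.22 to 1.61) and 1.42 (1.23 to 1.65). This difference, 0.49 on the log2 scale (SE 0.12, limma adjusted p 0.196), had the smallest adjusted p among the members and still missed the threshold. Leaving out any 1 library kept it between 0.47 and 0.51.

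*Ccng1* (ENSMUSG00000020326.7, chr11:40562054-40568813, minus strand) encodes cyclin G1, which brings a phosphatase to Mdm2 and restrains p53. It was at 80.6, 63.9 and 82.5 RPKM in set 1 and at 89.7, 72.8 and 104.0 RPKM in set 2, on 764 to 1296 reads, the deepest coverage among the members together with *Trp53inp1*. The Ring1BKD file was the lowest of each set, and both Ring1BKD libraries lay below the other 4. The ratio to control was 0.793 (0.718 to 0.875) in set 1 and 0.811 (0.739 to 0.890) in set 2, and both counting intervals lay below 1. The log2 change was -0.31 ± 0.12 (SE, adjusted p 0.552 by limma). For Dzip3KD against control the ratios were 1.02 (0.933 to 1.12) and 1.16 (1.06 to 1.26), with a log2 change of 0.12 ± 0.12 (SE, adjusted p 0.876 by limma).

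*Phlda3* (ENSMUSG00000041801.5, chr1:137662696-137665713, plus strand), whose product competes with the kinase Akt for membrane lipids and dampens its survival signal, was at 25.3, 21.5 and 25.3 RPKM in set 1 and at 25.2, 21.5 and 28.9 RPKM in set 2. Both Ring1BKD libraries were below the other 4, with a mean of 21.5 ± 0.0213 RPKM (SD, n = 2), compared with 25.2 ± 0.111 RPKM (SD, n = 2) in control. With 103 to 152 reads in a library, the counting error was 9.85% at 103 reads, more than the difference between these duplicates. The counting intervals of both ratios of Ring1BKD to control, 0.848 (0.645 to 1.11) and 0.854 (0.651 to 1.12), included 1. The log2 change was -0.22 ± 0.13 (SE, adjusted p 0.680 by limma).

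*Bax* (ENSMUSG00000003873.9, chr7:52717065-52722268, minus strand), which opens pores in the outer mitochondrial membrane during apoptosis, was at 34.0, 25.5 and 33.4 RPKM in set 1 and at 32.4, 24.7 and 28.6 RPKM in set 2. Both Ring1BKD libraries were the lowest of all. Their ratio to control was 0.751 (0.545 to 1.03) in set 1 and 0.762 (0.550 to 1.05) in set 2, with a log2 change of -0.39 ± 0.13 (SE, adjusted p 0.467 by limma). Of the comparisons of Ring1BKD with control, this was the smallest adjusted p among the members. For Dzip3KD the log2 change was -0.10 ± 0.13 (SE, adjusted p 0.910 by limma).

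*Trp53inp1* (ENSMUSG00000028211.5, chr4:11083578-11101526, plus strand) encodes a nuclear protein that favours the pro-apoptotic phosphorylation of p53 and takes part in autophagy. It was at 51.4, 39.3 and 35.9 RPKM in set 1 and at 48.8, 48.3 and 65.1 RPKM in set 2, on 657 to 1266 reads. The Dzip3KD file was the lowest of set 1 and the highest of set 2. Its ratio to control was 0.697 (0.629 to 0.773) in set 1 and 1.33 (1.22 to 1.46) in set 2. Each interval lay on a different side of 1, so the sets differed by more than counting error while the log2 change over both was -0.05 ± 0.20 (SE, adjusted p 0.975 by limma). It was 0.27 without the control library of set 1 and 0.32 without the Dzip3KD library of set 1. For Ring1BKD the ratios were 0.764 (0.691 to 0.845) and 0.990 (0.900 to 1.09), with a log2 change of -0.20 ± 0.20 (SE, adjusted p 0.821 by limma) that was 0.12 without the control library of set 1. The mean control level was 50.1 ± 1.89 RPKM (SD, n = 2) and the mean Dzip3KD level 50.5 ± 20.6 RPKM (SD, n = 2).

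**Figure D2:**
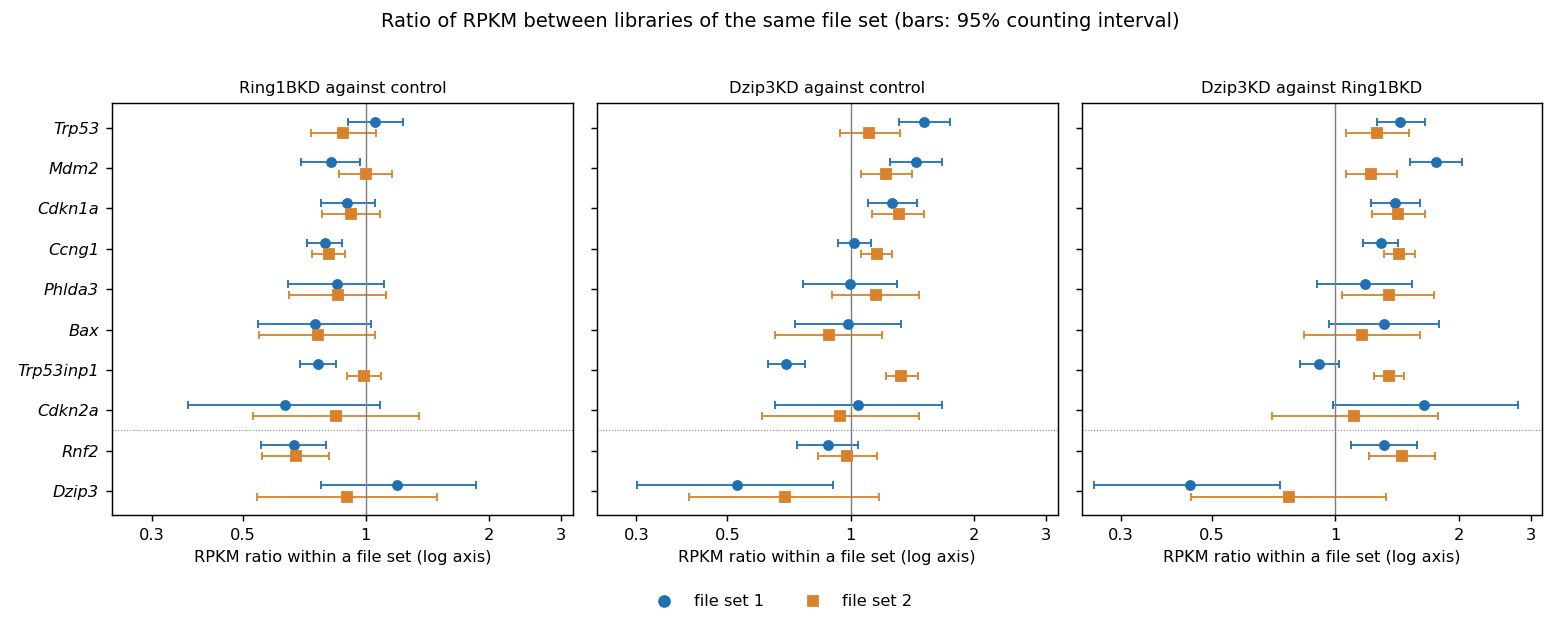
RPKM ratio (horizontal log axis) between libraries of the same set for the 8 genes and, below the dotted line, the targeted genes *Rnf2* and *Dzip3*; circles are set 1, squares set 2, and bars exact 95% counting intervals. Most members lie left of 1 for Ring1BKD against control and right of 1 for Dzip3KD against Ring1BKD, and *Trp53inp1* in Dzip3KD against control has a ratio of 0.697 in set 1 and 1.33 in set 2.

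*Cdkn2a* (ENSMUSG00000044303.5, chr4:88920377-88940557, minus strand) was examined as the gene of this set that PRC1 is known to silence. The RPKM values give a single number for the gene, so the transcripts of p16Ink4a and p19Arf cannot be told apart. Which of their first exons were counted is not known here. The 250 bases before the annotated starts are shown because the starts differ in CG content and CG-rich starts are where PRC1 is usually found. They are given 5′ to 3′ on the minus strand of mm9, with CG pairs in capitals.
p19Arf side, outermost start: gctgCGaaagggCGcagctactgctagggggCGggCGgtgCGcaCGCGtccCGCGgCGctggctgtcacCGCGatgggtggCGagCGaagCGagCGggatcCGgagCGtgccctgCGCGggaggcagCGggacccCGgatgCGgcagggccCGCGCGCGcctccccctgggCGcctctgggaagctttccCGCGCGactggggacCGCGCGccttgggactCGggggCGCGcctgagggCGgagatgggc
p16Ink4a start: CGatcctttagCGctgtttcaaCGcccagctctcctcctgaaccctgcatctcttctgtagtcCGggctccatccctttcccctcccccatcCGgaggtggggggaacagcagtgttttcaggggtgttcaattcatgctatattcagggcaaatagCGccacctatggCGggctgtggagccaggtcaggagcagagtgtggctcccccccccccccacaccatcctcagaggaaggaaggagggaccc

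The window on the p19Arf side (chr4:88940558-88940807) held 38 CG pairs, more than the same window of 97.0% of the scanned genes, whose median was 13. The window of the p16Ink4a start (chr4:88928097-88928346) held 7, more than that of 27.1% of genes. *Cdkn2a* was at 10.51, 6.67 and 10.96 RPKM in set 1, which stand for 36, 26 and 42 reads, and at 11.45, 9.70 and 10.81 RPKM in set 2, which stand for 43, 36 and 44 reads. The Ring1BKD file was the lowest of each set and no library named Ring1BKD was above a control. The ratio of Ring1BKD to control was 0.635 (0.368 to 1.08) in set 1 and 0.847 (0.529 to 1.35) in set 2, so at this depth neither set showed a difference beyond counting error. The log2 change was -0.40 ± 0.17 (SE, adjusted p 0.597 by limma). It was -0.62 without the Ring1BKD library of set 2 and -0.19 without that of set 1. The upper ends of these intervals, 1.08 and 1.35, cover counting error within each set only. They leave out the spread between libraries, so they set no limit on an increase of *Cdkn2a*.

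For Dzip3KD, *Cdkn2a* stood at 1.04-fold (0.652 to 1.67) and 0.944-fold (0.606 to 1.47) of control in the 2 sets, with a log2 change of -0.01 ± 0.17 (SE, adjusted p 0.994 by limma) that changed sign, to 0.03, when the libraries were scaled to a common 75th percentile. Of the genes beside it, *Cdkn2b*, which encodes the inhibitor p15Ink4b of Cdk4 and Cdk6, rested on 11 to 18 reads. It was at 4.05, 2.72 and 2.34 RPKM in set 1 and at 3.26, 3.96 and 3.21 RPKM in set 2, and its log2 change was -0.11 ± 0.22 (SE, adjusted p 0.915 by limma) for Ring1BKD and -0.31 ± 0.22 (SE, adjusted p 0.813 by limma) for Dzip3KD. *Mtap*, a purine salvage enzyme on the other side, was at 16.3, 14.0 and 16.8 RPKM and at 16.9, 13.6 and 16.6 RPKM. Both Ring1BKD libraries were its lowest, with a log2 change of -0.25 ± 0.14 (SE, adjusted p 0.650 by limma). *Dmrta1* was at the counting limit, with 0 to 3 reads, and was not compared.

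Read together, the 8 genes had lower fitted values in Ring1BKD than in control by file word, without any passing the test. The log2 change was below 0 for 8 of 8, as it was for 65.1% of all genes tested, with a median of -0.21 against -0.08 over all genes tested, and 5 genes had both Ring1BKD libraries below both controls. Those were *Ccng1*, *Phlda3*, *Bax*, *Cdkn2a* and *Trp53inp1*. Over all genes tested the same was true of 21.6%. None of the 8 passed limma at an adjusted p of 0.05, which 0.416% of all genes (48 of 11538) did, and 3 were lower at an unadjusted p under 0.05, against 5.20% of all genes. None fell by over 1.5-fold in both sets, as 2.54% of all genes did, or rose by as much, as 3.40% did. With libraries scaled to a common 75th percentile, 7 of 8 were lower, with a median of -0.10 against 0.01 over all genes. *Trp53* was the one that was not. Leaving out 1 library kept 7 or 8 of 8 lower.

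Markers of 2-cell-like cells, a rare state in mES cultures, differed between the same files. Of 6 such markers 4 were listed, and all 4 (*Zscan4c*, *Zscan4d*, *Zscan4f* and *Zfp352*) were higher in Ring1BKD than in control, with limma adjusted p of 0.0156, 0.0156, 0.028 and 0.0366. These calls depended on the fit: 0 of the 4 passed without the set block, without the low-value filter, without moderation or without the Ring1BKD library of set 2, and 2 passed with a pseudocount of 0.1. Without either control library, or without the Ring1BKD library of set 1, 3 passed. By sample label all 4 were lower in Ring1B-KD than in control, with a median log2 change of -1.28, and 0 passed. The *Zscan4* genes are near copies of each other, among which uniquely assigned reads may be split. The summed level of the 4 was 327 and 274 RPKM in the Ring1BKD libraries, against 135 and 60.4 RPKM in control and 115 and 55.1 RPKM in Dzip3KD. The part of these cells in the lower values of the 8 genes was not tested. In bulk RNA, fewer cells that express a gene and less RNA of it per cell cannot be told apart. All 8 pluripotency markers were listed, and most were lower in the Ring1BKD files, as the members were. Their sum was 1860, 1630 and 1450 RPKM in the files named control, Ring1BKD and Dzip3KD of set 1 and 1960, 1720 and 1910 RPKM in set 2. The log2 change for Ring1BKD against control was below 0 for 7 of the 8, as it was for 65.1% of all genes tested, and these 7 were lower in both sets. The median was -0.22, about that of the members, against -0.08 over all genes tested. At an unadjusted p under 0.05, 2 were lower, against 5.20% of all genes, and 0 passed limma. For Dzip3KD against control 7 of 8 were also lower, as were 5278 of the 9481 tested genes scanned without a p53 element. The median was -0.13, against -0.03 over all genes tested. At an unadjusted limma p under 0.05, 1 was lower, against 3.34% of all genes. The part of the pluripotency markers in the members' values was not tested. The 4 listed fibroblast markers summed to 1.18 to 3.10 RPKM, and the 7 primitive endoderm markers to 0.888 to 2.61 RPKM.

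For Dzip3KD against control, the members split. *Mdm2*, *Trp53*, *Cdkn1a*, *Ccng1* and *Phlda3* had log2 changes above 0 (0.09 to 0.40), as 44.5% of all genes tested had, and *Bax*, *Trp53inp1* and *Cdkn2a* below 0 (-0.10 to -0.01). The median was 0.11, against -0.03 over all genes tested. With libraries scaled to a common 75th percentile 6 were above 0, *Cdkn2a* included. Both Dzip3KD libraries exceeded both controls for 2 genes, *Mdm2* and *Cdkn1a*, as they did for 11.2% of all genes. With limma 0 of the 8 passed, and 0 of all 11538 genes (0.0%) did. At an unadjusted p under 0.05, 752 genes differed in either direction, and voom on the recovered reads called 1 gene. Among the members 3 (*Mdm2*, *Trp53* and *Cdkn1a*) were higher at an unadjusted p under 0.05, against 3.18% of all genes, and 0 were lower, against 3.34%. None changed over 1.5-fold the same way in both sets, which 2.33% of all genes did upwards and 1.86% downwards.

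Between the files named for the ligases the members had a larger median difference than in either contrast with control, although for *Bax*, *Trp53inp1* and *Cdkn2a* the log2 change of Ring1BKD against control was the larger in size. For Dzip3KD against Ring1BKD the log2 change was above 0 for 8 of 8, as it was for 58.2% of all genes tested, from 0.15 for *Trp53inp1* to 0.54 for *Mdm2*, with a median of 0.41 against 0.05 over all genes tested. *Cdkn1a* (0.49), *Ccng1* (0.43), *Trp53* (0.42) and *Cdkn2a* (0.39) were each higher than over 90% of tested genes. Both Dzip3KD libraries exceeded both Ring1BKD libraries for 6 of 8, against 17.3% of all genes, and 5 of 8 were higher at an unadjusted p under 0.05, against 6.43%, and 0 lower, against 3.66%. None passed limma at an adjusted p of 0.05, which 0.676% of all genes (78 of 11538) did. *Trp53inp1* was the exception within sets, at 0.913-fold (0.820 to 1.02) in set 1 and 1.35-fold (1.24 to 1.47) in set 2, and its change was -0.22 without the Dzip3KD library of set 2. This contrast shares its libraries with the other 2 contrasts and is not a separate observation.

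**Figure D3:**
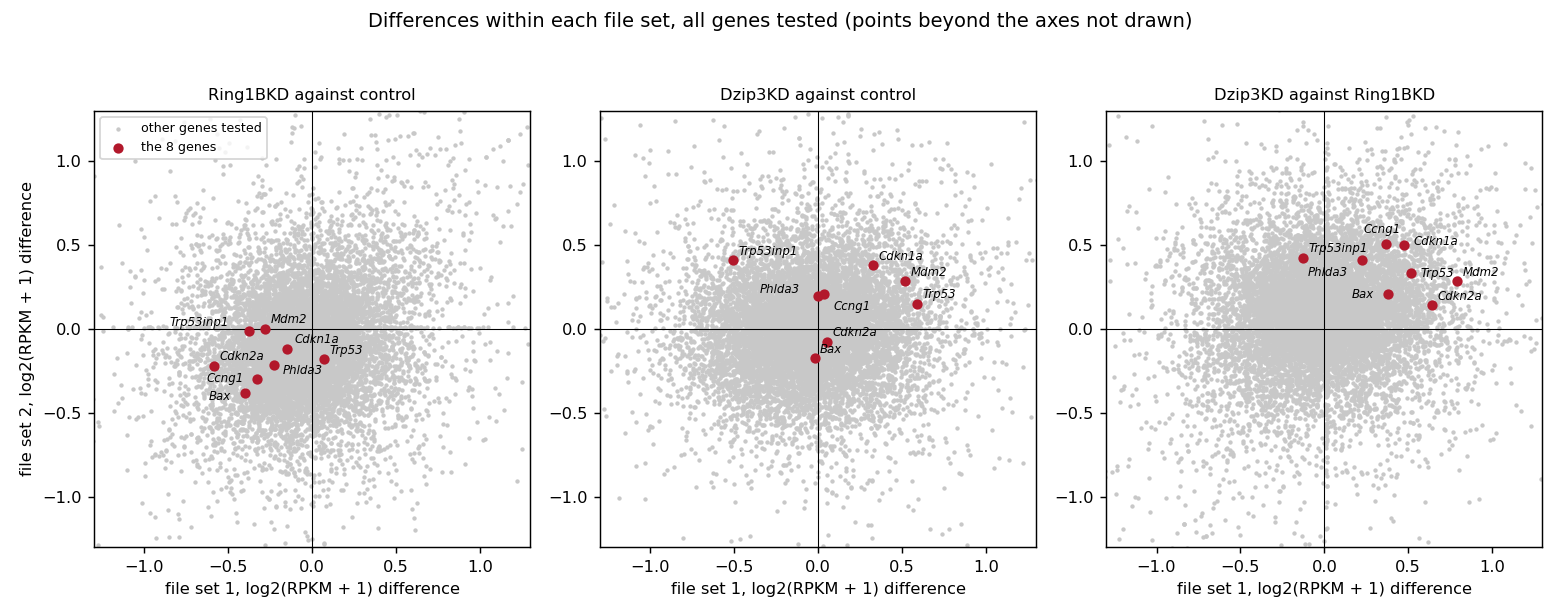
Difference of log2(RPKM + 1) between libraries of set 1 (horizontal axis) and of set 2 (vertical axis) for the genes tested (grey, points beyond the axes not drawn) and the 8 genes (red, named), for the 3 comparisons by file word. For Ring1BKD against control 6 of the 8 genes lie in the lower left quadrant, and for Dzip3KD against Ring1BKD 7 lie in the upper right, within the cloud of all genes.

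By sample label, the same 6 libraries gave other differences. Both libraries labelled control are in set 1 and both labelled Dzip3-KD in set 2, so for these labels group and set cannot be told apart. For Ring1B-KD against control 7 of 8 members were higher, as were 4449 of the 9481 tested genes scanned without a p53 element. The median log2 change of the members was 0.14, against -0.02 over all genes tested. The largest was *Mdm2*, at 41.3 ± 9.51 RPKM (SD, n = 2) in the Ring1B-KD libraries and 30.3 ± 4.24 RPKM (SD, n = 2) in control, with a log2 change of 0.42 ± 0.21 (SE, adjusted p 0.902 by limma). *Cdkn2a* was at 11.2 ± 0.350 RPKM (SD, n = 2) compared with 8.59 ± 2.71 RPKM (SD, n = 2), with a log2 change of 0.38 ± 0.22 (SE, adjusted p 0.904 by limma), the opposite sign to that by file word. *Trp53* was at 62.8 ± 29.0 RPKM (SD, n = 2) compared with 56.5 ± 2.03 RPKM (SD, n = 2). Its libraries labelled Ring1B-KD, at 83.3 and 42.3 RPKM, enclosed both controls.

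For the label Dzip3-KD against control, 5 of 8 members were higher, as were 4000 of the 9481 tested genes scanned without a p53 element. The median of the members was 0.18, against -0.07 over all genes tested. *Trp53* was lower, at 42.1 ± 6.97 RPKM (SD, n = 2), with a log2 change of -0.42 ± 0.29 (SE, adjusted p 0.554 by limma), and *Cdkn1a* was at 54.4 ± 13.5 RPKM (SD, n = 2) compared with 54.9 ± 4.03 RPKM (SD, n = 2) in control. The log2 change of *Cdkn2a* was 0.26 ± 0.22 (SE, adjusted p 0.637 by limma). For Dzip3-KD against Ring1B-KD 6 of 8 were lower, as were 5210 of the same 9481 genes. The median of the members was -0.10, against -0.03 over all genes. No member and no other gene passed limma in any comparison by label (0.0% of 11538 genes in each). At an unadjusted p under 0.05 there were 589, 1411 and 534 genes in the order of the comparisons just given, and none of the members was among them.

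A longer list of 30 further p53 targets was then examined, of which 28 were tested. For Ring1BKD against control by file word, 25 were lower and 3 higher, where 65.1% of all genes tested were lower, with a median log2 change of -0.14 against -0.08 over all genes, and 0 passed limma. At an unadjusted p under 0.05, 7 were lower and 1 higher, against 5.20% and 3.11% of all genes tested. By the rule for naming genes, over 1.5-fold the same way in both sets, 1 target was lower and 1 higher. Over all genes tested, 2.54% were lower and 3.40% higher by as much. The lower target was *Pidd1*, which assembles a caspase-activating complex. It was at 4.57 and 2.92 RPKM in control and Ring1BKD of set 1 and at 4.69 and 2.85 RPKM in set 2, with a log2 change of -0.54 ± 0.17 (SE, adjusted p 0.433 by limma). These stand for 40 and 29 reads and for 45 and 27 reads. The counting intervals of its ratios were 0.381 to 1.05 in set 1 and 0.362 to 1.0 in set 2. *Pmaip1*, which encodes the pro-apoptotic protein Noxa, went the other way. It was at 5.75 and 9.996 RPKM in set 1 and at 2.96 and 7.38 RPKM in set 2, with a log2 change of 0.89 ± 0.20 (SE, adjusted p 0.192 by limma). Its counting intervals were 1.21 to 2.54 and 1.56 to 4.09.

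For Dzip3KD against control, 17 of the 28 further targets were higher and 11 lower, where 44.5% of all genes tested were higher. The median was 0.10 against -0.03 over all genes, and no gene met the rule for naming. For Dzip3KD against Ring1BKD 24 were higher and 4 lower, where 58.2% of all genes tested were higher. The median was 0.31 against 0.05, and 0 passed. Over 1.5-fold in both sets, 3 were higher and 1 lower. Of the 9481 tested genes scanned without a p53 element, 301 were higher and 298 lower by as much. *Bbc3*, which encodes the pro-apoptotic protein Puma, was at 5.31 and 8.55 RPKM in Ring1BKD and Dzip3KD of set 1 and at 4.18 and 10.9 RPKM in set 2. *Perp*, which encodes a membrane protein of cell junctions, was at 3.38 and 5.15 RPKM in set 1 and at 5.64 and 13.1 RPKM in set 2. The counting interval of its ratio in set 1, 0.863 to 2.75, included 1, and that in set 2, 1.55 to 3.53, did not. *Pidd1* was at 2.92 and 5.72 RPKM and at 2.85 and 5.10 RPKM, and *Pmaip1* had the opposite order, at 9.996 and 5.14 RPKM and at 7.38 and 4.73 RPKM. By label, 14 of the 28 were higher and 14 lower for Ring1B-KD against control, with a median of 0.04 against -0.02. Of the 9481 tested genes scanned without a p53 element, 4449 were higher there.

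**Figure D4:**
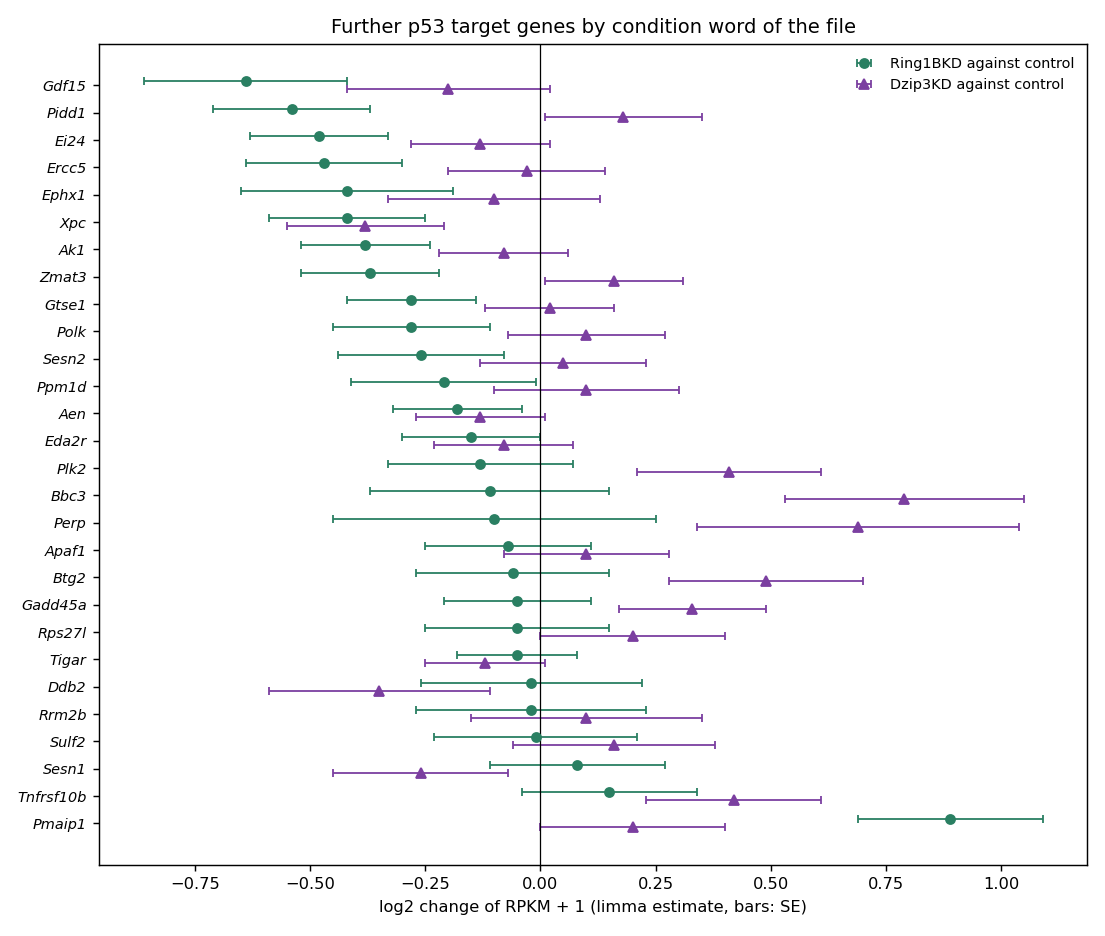
Log2 change of RPKM + 1 (horizontal axis) of the 28 further p53 targets tested, against control, by file word; circles are Ring1BKD, triangles Dzip3KD, and bars the SE of limma, with genes ordered by the Ring1BKD change. For Ring1BKD 25 of 28 circles lie left of 0, with *Pmaip1* (0.89) farthest to the right, and for Dzip3KD 17 of 28 triangles lie right of 0, with *Bbc3* (0.79) farthest.

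Genes that act on p53 were listed separately. Of 20 such regulators, among them *Mdm4*, *Atm* and *Chek2*, 16 were lower and 4 higher in Ring1BKD than in control. Over all genes tested, 65.1% were lower. The median of the regulators was -0.13 against -0.08, and 0 passed. In Dzip3KD 9 regulators were higher and 11 lower, where 44.5% of all genes tested were higher. Their median was -0.01 against -0.03. *Hipk2*, a kinase of p53, was the one regulator named for Dzip3KD against Ring1BKD, at 1.53 and 3.04 RPKM in set 1 and at 1.20 and 2.01 RPKM in set 2. The counting interval of its ratio in set 1, 1.19 to 3.4, lay above 1, and that in set 2, 0.914 to 3.15, included 1. *Ppp1r13l* was also higher by over 1.5-fold in both sets (2.8 and 1.92), on fewer reads than the rule for naming asks. Of 14 further inhibitors, cyclins and kinases of the retinoblastoma pathway, 13 were tested. In Ring1BKD 8 of these were lower and 5 higher, where 65.1% of all genes tested were lower. Their median was -0.06 against -0.08. *Cdk6*, a target of p16Ink4a, was the one named there for Dzip3KD against Ring1BKD, at 3.19 and 4.92 RPKM in set 1 and at 0.744 and 1.81 RPKM in set 2. These stand for 27 and 41 reads in set 1 and for 6 and 16 reads in set 2. Its ratios were 1.54 (0.927 to 2.61) and 2.43 (0.904 to 7.59), so both counting intervals included 1. In the other direction, 2 genes of this list, *Cdkn1c* and *Cdkn2c*, were lower by over 1.5-fold in both sets. Both had fewer reads than the rule for naming asks. The p53 paralogue *Trp73* was the single one of 2 relatives that was listed, at 0.493 to 1.36 RPKM. Of the genes with a match to the p53 element, 1164 were tested, and their median change in Ring1BKD was -0.09, against -0.08 for the 9481 tested genes scanned without one.

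The genes whose levels followed *Cdkn1a* most closely over the 6 libraries were not p53 targets of these lists. Among the 5509 genes at 5 RPKM or more on average, they were *Smek1* (Pearson r 0.991), *Mrpl18* (0.989), *Cnot2* (0.988), *Sptbn1* (0.985) and *Zbtb1* (0.979), on log2(RPKM + 1). Of the members, *Trp53* (0.816) and *Mdm2* (0.731) followed it best, *Phlda3* (0.644), *Bax* (0.560), *Ccng1* (0.429) and *Cdkn2a* (0.300) less so, and *Trp53inp1* (-0.122) did not. The *Trp53* value ranks 269 of 5509. With 6 libraries that share sets and depth, these correlations describe the libraries and carry no test.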

How the data were processed

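The deposited values are RPKM, which the authors computed from uniquely assigned reads, exon length and mapped reads, separately for each library. According to the methods of the study, TruSeq Stranded mRNA libraries were read on a MiSeq instrument and aligned to mm9 with 1 mismatch allowed. The gene annotation is not given in the sources used here. RPKM does not correct for RNA composition.

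Tests used limma 3.58.1 (R 4.3.3) with a variance trend on log2(RPKM + 1), which understates changes of low genes, for genes that averaged 0.5 RPKM or more across the 6 libraries. P-values were adjusted by Benjamini-Hochberg over 11538 genes, with a threshold of 0.05. By file word the set was a block, since libraries of a set deviated together (correlations of deviations 0.42 to 0.47). By label no block was used. The members, lists and the use of the file word were chosen with earlier results of these data known. The p-values set each difference against a spread estimated over all 6 libraries and drawn towards a trend over all genes tested. With 2 libraries in a group, few libraries stand behind that spread.

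Whole reads were recovered for 15518 genes (93.1%), accepting multiples within 0.02 reads and lengths of 100 to 20000 bases. Mapped reads came from 792 matches to annotated transcript lengths, and 21.3% of recovered lengths equalled an annotated transcript. Further genes were named where they exceeded 1.5-fold the same way in both sets with at least 20 reads on average, at most 8 per comparison. Alternatives were another pseudocount, no filter, another scaling, no block, no moderation, voom on the reads and leaving out each library.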

Additional observations from a re-analysis of the deposited data

Results flagged for a closer look

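In 6 cases the libraries of set 1 and set 2 moved in opposite directions, given here as log2 ratios of RPKM within a set. For *Trp53inp1* the log2 ratio of Dzip3KD to control was -0.52 in set 1 and 0.42 in set 2, and that of Dzip3KD to Ring1BKD was -0.13 and 0.43. For *Trp53* the log2 ratio of Ring1BKD to control was 0.07 and -0.18. For *Cdkn2a* the log2 ratio of Dzip3KD to control was 0.06 and -0.08. In the remaining cases one of the sets was close to 0: for *Mdm2* the log2 ratio of Ring1BKD to control was -0.29 and 0.0004, and for *Phlda3* that of Dzip3KD to control was -0.0037 and 0.20. With 1 library per name and set, the difference between sets was not tested across libraries. The counting intervals of the *Trp53inp1* ratios to control do not overlap, and those of *Trp53*, *Mdm2*, *Phlda3* and *Cdkn2a* do.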

How the results depend on the processing

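No member passed the threshold in any alternative. Over the alternatives, the adjusted p of the members by file word was 0.232 to 1 for Ring1BKD against control, 0.215 to 1 for Dzip3KD against control and 0.0538 to 1 for Dzip3KD against Ring1BKD. By label it was 0.45 to 1, 0.219 to 0.989 and 0.0865 to 0.999. The counts over all genes depended on the setting. For Ring1BKD against control (48 genes) and Dzip3KD against Ring1BKD (78 genes) by file word, they were 21 and 42 with a pseudocount of 0.1, 0 and 0 without the filter on low values, without the set block or without moderation, and 83 and 141 with voom. Voom called 1 gene for Dzip3KD against control. Leaving out 1 library, where the lone library of its group is assumed to vary like the others, gave 3 to 61 genes for Ring1BKD against control (3 without the Ring1BKD library of set 2), 0 to 4 for Dzip3KD against control (4 without control and 1 without Dzip3KD of set 2) and 26 to 172 for Dzip3KD against Ring1BKD (26 and 40 without the Dzip3KD library of set 1 or 2, 39 without Ring1BKD of set 2, 172 and 171 without control of set 1 or 2). By label, Dzip3-KD against control gave 0 to 27 genes, with 25 and 27 without Ring1B-KD 1 and 2, and 1 gene with the replicate number as a block. The label numbers did not pair the libraries (correlations of deviations -0.24 to 0.04), and a block with the Dzip3-KD numbers crossed, chosen after seeing the data, gave 0 genes.

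Of the members' changes, 2 of 192 outside leave-one-out reversed, both with 75th percentile scaling: *Trp53* in Ring1BKD (0.06) and *Cdkn2a* in Dzip3KD (0.03). Leaving out 1 library reversed 28 of 288. By file word the log2 ranges that crossed 0 were, for Ring1BKD against control, *Trp53* -0.23 to 0.12, *Mdm2* -0.34 to 0.06 and *Trp53inp1* -0.52 to 0.12. For Dzip3KD against control they were *Phlda3* -0.00 to 0.19, *Trp53inp1* -0.42 to 0.32 and *Cdkn2a* -0.17 to 0.15, and for Dzip3KD against Ring1BKD *Trp53inp1* -0.22 to 0.51. By label, for Ring1B-KD against control they were *Trp53* -0.41 to 0.55, *Cdkn1a* -0.16 to 0.40, *Phlda3* -0.01 to 0.22, *Bax* -0.04 to 0.36 and *Trp53inp1* -0.32 to 0.11. For Dzip3-KD against control they were *Cdkn1a* -0.28 to 0.22, *Phlda3* -0.11 to 0.30, *Bax* -0.34 to 0.06 and *Cdkn2a* -0.03 to 0.55. For Dzip3-KD against Ring1B-KD they were *Mdm2* -0.32 to 0.14, *Cdkn1a* -0.44 to 0.13, *Ccng1* -0.24 to 0.27 and *Phlda3* -0.22 to 0.19. The cause of these changes was not tested. Depth limits *Cdkn2a* (26 to 44 reads), *Cdkn2b* (11 to 18) and *Dmrta1* (0 to 3) most.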
